A study of Mus musculus with 6 samples.

Results

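The levels of 9 genes of efferocytosis and scavenging were followed through the CD45+ cells of the inflamed mouse joint. The genes were Mertk, Axl, Gas6, Timd4, Stab1, Msr1, Marco, Cd36 and Mfge8. They were chosen by symbol, and all 9 were among the 20394 genes of the count table. The cells came from knees of wild-type C57BL/6 mice with antigen-induced arthritis, a model in which mice immunized with methylated bovine serum albumin in complete Freund's adjuvant received the same antigen into the knee on day 21. The 6 samples were taken on day 3 after that challenge, 2 from mice given the vehicle PBS and 4 from mice given 300 μg of PEPITEM, a peptide released by B cells that limits leukocyte migration, by the intraperitoneal route. All groups shared the strain, the immunization and the challenge. Male mice bought at 8 weeks of age were used.

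The table held 32953 cells whose barcodes carry a library number from 1 to 6. No source used here ties these numbers to the samples, so the treatments could not be set against each other, and each library stands for an unknown treatment. The libraries held 2919 to 9345 cells and 47273569 to 123367661 UMIs (unique molecular identifiers, which count captured RNA molecules), with a median of 9923 to 14001 UMIs per cell. Of the barcode sequences, 138 occurred in a pair of libraries. Levels are pooled UMIs of a gene scaled to the total UMIs of the cells as counts per 1000000 UMIs (CPM) with an exact 95% Poisson interval in brackets, and shares of cells carry exact 95% binomial intervals. Both intervals cover counting error only, and ranges over libraries include those with at least 20 cells of the class.

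Efferocytosis is the uptake of dying cells. Phosphatidylserine exposed on a dying cell is recognized directly by receptors such as TIM-4 (Timd4) and stabilin-1 (Stab1), or through the soluble bridges GAS6 (Gas6), which links it to the receptor tyrosine kinases MERTK (Mertk) and AXL (Axl), and MFG-E8 (Mfge8), which links it to integrins. The scavenger receptors CD36 (Cd36), SR-A1 (Msr1) and MARCO (Marco) bind modified lipoproteins, lipids and bacterial components. Macrophages that line the healthy synovium are known for MERTK and TIM-4, and AXL is known to be induced in inflamed tissue.

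In the GENCODE M21 annotation of GRCm38, the build of the authors' alignment (mm10), the genes lie at chr2:128698956-128802894 (Mertk, plus strand), chr7:25757273-25788705 (Axl, minus), chr8:13465374-13494490 (Gas6, minus), chr11:46810800-46844332 (Timd4, plus), chr14:31139013-31168641 (Stab1, minus), chr8:39581685-39642673 (Msr1, minus), chr1:120474538-120505024 (Marco, minus), chr5:17781690-17888801 (Cd36, minus) and chr7:79133768-79149060 (Mfge8, minus). All 9 are protein coding. Mertk overlaps Gm14011 on the opposite strand and Gm23172 on its own strand, Gas6 overlaps Tmem255b and Stab1 overlaps Nt5dc2, both on the opposite strand, and the other members overlap no annotated gene.

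Promoters were matched for 8 of the 9 members in RefSeq's GRCm38.p6 table. Shown are 4, those of Timd4 and Gas6, which had the highest ratios between the macrophage classes described below, and of the receptors Mertk and Axl, which differed in direction. Each sequence is the 250 bases before the annotated start, 5′ to 3′ on the strand of the gene: chr11:46810549-46810798 (plus) for Timd4, chr8:13494536-13494785 (minus) for Gas6, chr2:128698665-128698914 (plus) for Mertk and chr7:25788734-25788983 (minus) for Axl. Capitals mark exact matches, searched on both strands, to short motifs. The first motif was the GC box that Sp1 family factors bind, with the letters GGGCGG. Next came the TATA box near the start of many regulated genes, searched as TATAA. The half-site of the MAF factors, which are abundant in tissue macrophages, was searched with the letters TGCTGAC. Last was the core of PU.1, a factor that macrophages need for their development, taken as GAGGAA in this search.
Timd4: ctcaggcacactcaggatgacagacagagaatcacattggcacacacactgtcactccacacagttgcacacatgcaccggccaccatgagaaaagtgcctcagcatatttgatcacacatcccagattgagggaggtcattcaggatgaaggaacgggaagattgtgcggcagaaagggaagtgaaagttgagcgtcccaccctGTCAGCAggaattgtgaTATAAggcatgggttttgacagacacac
Gas6: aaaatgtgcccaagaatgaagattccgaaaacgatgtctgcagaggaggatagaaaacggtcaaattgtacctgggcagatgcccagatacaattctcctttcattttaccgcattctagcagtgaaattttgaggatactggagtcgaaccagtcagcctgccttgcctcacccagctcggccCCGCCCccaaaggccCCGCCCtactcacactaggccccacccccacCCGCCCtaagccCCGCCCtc
Mertk: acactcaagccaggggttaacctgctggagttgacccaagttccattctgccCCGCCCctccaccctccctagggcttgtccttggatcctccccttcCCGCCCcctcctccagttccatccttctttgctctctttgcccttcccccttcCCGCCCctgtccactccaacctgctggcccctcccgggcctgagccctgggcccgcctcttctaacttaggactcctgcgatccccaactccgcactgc
Axl: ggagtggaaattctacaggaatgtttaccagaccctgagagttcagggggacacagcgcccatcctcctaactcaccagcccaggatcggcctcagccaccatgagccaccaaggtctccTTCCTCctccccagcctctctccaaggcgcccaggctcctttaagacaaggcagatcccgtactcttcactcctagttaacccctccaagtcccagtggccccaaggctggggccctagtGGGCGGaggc
The Timd4 promoter held a TATA box beginning 28 bases before the start and a MAF half-site on the reverse strand beginning 45 bases before it, and no GC box. The Gas6 promoter held 4 GC boxes, the Mertk promoter 3 and the Axl promoter 1, and Axl also held a PU.1 core. Of all 32851 promoters of this table, 22.8% held a TATA box, 32.7% a GC box, 3.81% a MAF half-site and 23.3% a PU.1 core in the same window. These matches describe letters, not binding, and the motifs do not overlap one another.

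The cells were clustered without the 9 members and 49 other efferocytosis genes, so that none of them shaped a cluster, and 15 cell classes were named from fixed marker genes. Each name stands for cells like that type by these markers. Lyve1 resident macrophage-like cells (2328 cells, here resident macrophages) carried Lyve1 in 82.8% of cells, Folr2 in 87.0% and Fxyd2 in 85.5%. Inflammatory macrophage-like cells (4482 cells) carried Spp1 in 58.4%, Il1rn in 74.8% and Arg1 in 32.2%, against 18.0%, 34.2% and 4.55% of resident macrophages, while Nos2 was found in 3.57% of them. Ccl7 of the same list was higher in the resident class, at 978 against 423 CPM. The 3 clusters of 1819 cells that got no name are left out of the class comparisons. The classes also held precursor-type cells, such as 1103 neutrophil precursors and a B cell cluster led by Vpreb1 and Igll1 (611 cells). From which tissue of the digested joint each class came was not tested. The resident class made up 1.5% of library 2, the lowest, and 14.4% of library 4, the highest. Median depth was 12644 UMIs in resident and 19624.5 in inflammatory macrophages.

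**Figure D1:**
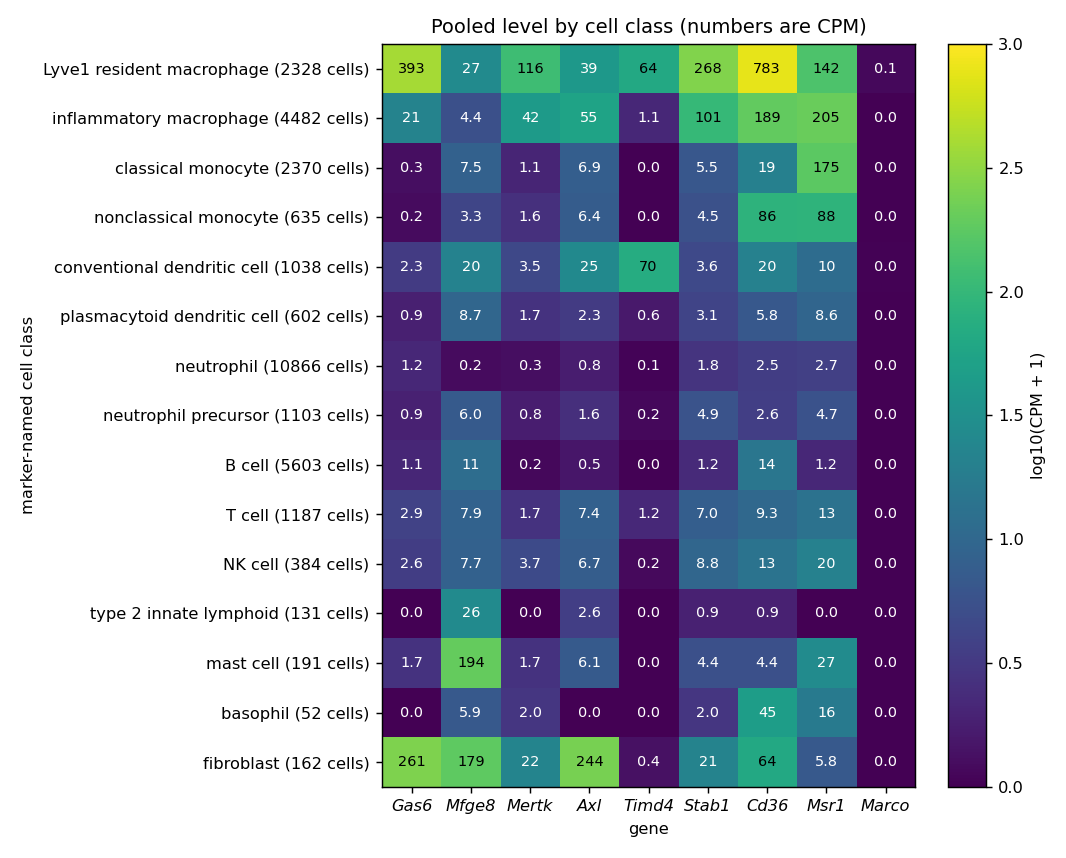
Level of each gene in the 15 named cell classes, as pooled CPM (numbers) and as log10(CPM + 1) (colour). Resident macrophages hold the highest level of Gas6 (393 CPM), Mertk (116 CPM), Stab1 (268 CPM) and Cd36 (783 CPM), fibroblasts that of Axl (244 CPM) and mast cells that of Mfge8 (194 CPM).

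Of the 8 measured members, 5 reached their highest class level in a macrophage class, as did 9.0% of the 13495 genes at 5 CPM or more in at least 1 class. Mertk, Gas6, Stab1 and Cd36 were highest in resident macrophages and Msr1 in inflammatory macrophages. Axl was highest in fibroblasts, Timd4 in conventional dendritic cells and Mfge8 in mast cells. Of all Mertk UMIs, resident macrophages held 46.4% and inflammatory macrophages 49.0%, and 80.6% of all Gas6 UMIs were in resident macrophages alone.

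Marco was at or near 0 throughout. Only 8 UMIs were counted in 32953 cells, 5 of them in resident macrophages, 2 in inflammatory macrophages and 1 in conventional dendritic cells. Its pooled level in resident macrophages was 0.147 CPM (0.0477 to 0.343), and in 2370 classical monocytes no cell had a UMI, which by the limit of 3 counts of the total, a bound apart from the exact interval, allows a share of up to 0.127% of cells with one. It is left out of the ratios below.

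Of the 8 remaining members, 6 were at least 2-fold higher in resident than in inflammatory macrophages, against a background of 11.4% of 9540 genes tested (those at 5 CPM or more in either class). None was at least 2-fold lower, against 4.60% of genes. The same 6, Mertk, Gas6, Timd4, Stab1, Cd36 and Mfge8, were also the members whose 6 library values lay entirely above those of the other class, against 20.7% of genes. No member lay entirely below, against 7.82% of genes. Timd4 and Mfge8 passed the limit of 5 CPM through the resident class alone, with 1.15 and 4.39 CPM in inflammatory macrophages. The classes were defined from the same cells, so these counts describe the classes and were not tested. They rest on the pooled inflammatory class, whose finer clusters, described below, were unlike in some of these genes.

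Among the bridging molecules, Gas6 ranged over libraries from 243.3 to 441.4 CPM (median 366.9) in resident macrophages and from 6.73 to 35.9 CPM (median 22.4) in inflammatory macrophages. The lowest resident library, library 2, was thus still well above every inflammatory library. The pooled levels were 393 CPM (386 to 399) and 20.9 CPM (20.03 to 21.83), a log2 ratio of 4.23. After each cell was thinned to 3000 UMIs, 64.7% of resident and 4.94% of inflammatory macrophages held a Gas6 UMI, and 0.367% of neutrophils, a class not known for this gene.

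Mfge8 was present at lower levels in both classes. Its library values were 15.3 to 33.9 CPM in resident and 2.35 to 6.602 CPM in inflammatory macrophages, without overlap, and the pooled log2 ratio was 2.60. Classical monocytes, at 7.50 CPM (6.64 to 8.43), were above inflammatory macrophages in 6 of 6 libraries although the ranges overlapped. Conventional dendritic cells held 20.5 CPM (18.6 to 22.5), with libraries from 13.5 to 26.9 CPM that overlapped the resident range. The resident class was above them in 4 of 6 libraries. The 131 type 2 innate lymphoid cells held 26.3 CPM (17.8 to 37.6), beside 26.6 CPM in resident macrophages. The highest levels were outside the phagocytes: 194 CPM (169 to 221) in 191 mast cells, where 3 libraries gave 188.5 to 201.6 CPM, and 179 CPM (164 to 196) in 162 fibroblasts, where 2 libraries gave 156.5 and 164.9 CPM. The intervals of the mast cells and the fibroblasts overlap, so their order is not settled by these counts.

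Of the TAM receptors (TYRO3, AXL and MERTK), Mertk was higher in resident macrophages and Axl was not. Mertk ranged from 72.8 to 164.4 CPM (median 108.8) in resident macrophages and from 34.3 to 47.7 CPM (median 41.1) in inflammatory macrophages. All resident libraries were above all inflammatory ones, with library 2 the lowest and library 4 the highest of the resident values. The pooled levels were 116 CPM (112 to 120) and 41.6 CPM (40.3 to 42.8), a log2 ratio of 1.48. In classical monocytes, from which inflammatory macrophages can arise, Mertk was at 1.06 CPM (0.751 to 1.44), below the inflammatory class in 6 of 6 libraries.

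Axl went the other way in 5 of 6 libraries, with 24.6 to 49.6 CPM in resident and 34.1 to 72.4 CPM in inflammatory macrophages. The ranges overlapped and the log2 ratio of −0.48 did not reach 2-fold. Library 2 was the exception, at 42.2 CPM in resident and 34.1 CPM in inflammatory macrophages. The resident class was not uniform in Axl. At the finer clustering described below, a resident cluster led by Fxyd2 and Lyve1 (1409 cells) held 52.9 CPM (libraries 33.7 to 69.0). Another, led by Ccl24 and Retnla (909 cells), held 26.7 CPM (20.05 to 35.3). The pooled inflammatory level was 54.7 CPM, close to the first of these. Classical monocytes held 6.93 CPM (6.11 to 7.83) and conventional dendritic cells 25.2 CPM (23.1 to 27.4). Fibroblasts held 244 CPM (226 to 263), from 2 libraries at 176.2 and 340.2 CPM. Tyro3, the third TAM receptor, was below 0.1 CPM in both macrophage classes.

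The joint detection of Gas6 and its receptors in single cells was set beside the product of their separate shares. In cells thinned to 3000 UMIs, 15.6% of 2191 resident macrophages held both a Gas6 and a Mertk UMI, where the product of the separate shares (64.7% and 22.2%) is 14.4%. For Gas6 and Axl the joint share was 5.57% and the product 6.29%, so that this pair lay below its product where Gas6 and Mertk lay above. For Mertk and Axl the joint share was 2.05% and the product 2.16%. In 4391 inflammatory macrophages Gas6 and Mertk occurred together in 1.12% of cells, against a product of 0.494%. Gas6 with Axl (0.774% against 0.667%) and Mertk with Axl (1.799% against 1.35%) also lay above their products there. A finer cluster of this class led by Arg1 held more Gas6 and Mertk than one led by Cxcl9, as described below. The part of this makeup in the joint shares was not tested. The joint shares carry no intervals, and whether any differed from its product was not tested in either class.

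**Figure D2:**
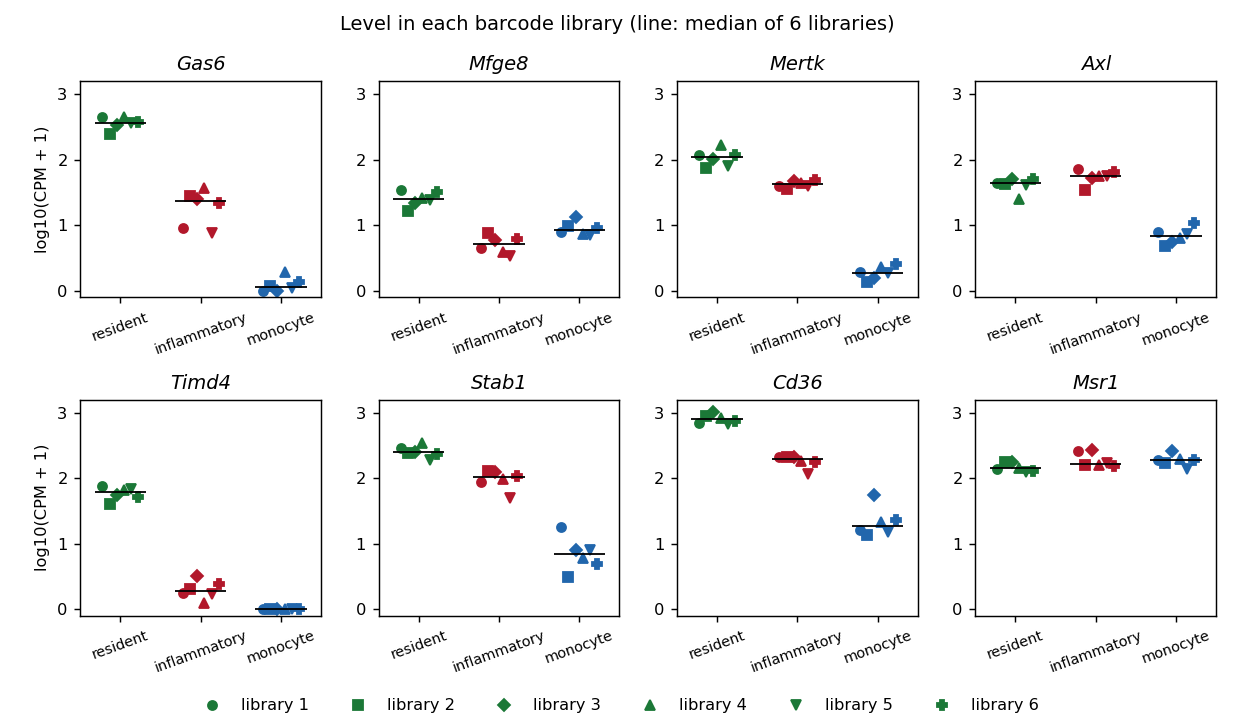
Level of the 8 measured genes, as log10(CPM + 1), in each of the 6 barcode libraries (symbols) for resident macrophages, inflammatory macrophages and classical monocytes, with the median as a line. The resident values of Gas6, Mfge8, Mertk, Timd4, Stab1 and Cd36 lie above all inflammatory values, while those of Axl and Msr1 overlap.

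Timd4 separated the 2 macrophage classes most widely. The 6 libraries gave 39.0 to 74.8 CPM (median 60.0) in resident and 0.253 to 2.18 CPM (median 0.920) in inflammatory macrophages. Library 2 was the lowest of the resident values, and no inflammatory library came near it. The pooled levels were 64.0 CPM (61.4 to 66.8) and 1.15 CPM (0.947 to 1.38), a log2 ratio of 5.80. A Timd4 UMI was found in 39.5% (37.5 to 41.5) of resident macrophages, in 0.826% (0.582 to 1.14) of inflammatory macrophages and in 0.0736% (0.0318 to 0.145) of neutrophils, whose median depth was 7439.5 UMIs. None of 2370 classical monocytes had one.

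Conventional dendritic cells held a Timd4 level in the range of resident macrophages, in a smaller share of cells. Their level was 70.4 CPM (66.9 to 74.1), with libraries from 21.4 to 92.4 CPM that overlapped the resident range, and the resident class was higher in 2 of 6 libraries. Only 14.5% (12.4 to 16.7) of 1038 dendritic cells carried a UMI, with 10.1 UMIs per positive cell, whereas a positive resident macrophage carried 2.37. Thinned to equal depth the shares were 8.80% and 16.2%. Within the dendritic class, 152 cells gated as type 1 (cross-presenting) by their markers held 150.4 CPM (137.5 to 164.3), 602 gated as type 2 held 65.4 CPM (61.1 to 70.0) and 140 gated as migratory held 27.6 CPM (21.6 to 34.8). Library values ran from 23.5 to 284.2 CPM in the type 1 gate (5 libraries) and from 23.0 to 86.0 CPM in the type 2 gate (6 libraries), so the gates overlapped.

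Stab1, which also takes part in endocytosis of matrix and lipoprotein ligands, ranged from 186.5 to 347.6 CPM (median 246.0) in resident and from 48.5 to 125.8 CPM (median 102.9) in inflammatory macrophages. The highest inflammatory library, library 2, stayed below the lowest resident library, library 5. The pooled log2 ratio was 1.40. Classical monocytes were at 5.52 CPM (4.79 to 6.33), lower than inflammatory macrophages in 6 of 6 libraries.

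Cd36, a fatty acid and oxidized lipoprotein receptor, was at 668.6 to 1009 CPM (median 791.6) in resident and 114.4 to 212.3 CPM (median 194.0) in inflammatory macrophages, without overlap. The pooled levels were 783 CPM (773 to 792) and 188.9 CPM (186.2 to 191.6), a log2 ratio of 2.05. With cells gated one by one in place of clusters, which left 334 inflammatory cells, the log2 ratio was 0.57. Nonclassical monocytes were not uniform. In their cluster of 98 cells with little neutrophil RNA, Cd36 reached 751.5 CPM (690.2 to 816.7), and in the cluster of 537 cells with 93.5% of cells over 10000 CPM of neutrophil marker RNA it was 46.0 CPM (42.23 to 49.95). The part of that RNA in the difference was not tested.

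Msr1, the receptor of acetylated lipoproteins, had levels in classical monocytes that overlapped those in both macrophage classes. It ranged from 123.1 to 178.5 CPM in resident macrophages, 155.1 to 267.4 CPM in inflammatory macrophages and 139.3 to 254.7 CPM in classical monocytes. The 3 ranges overlapped, and inflammatory macrophages and classical monocytes were each higher in 3 of 6 libraries. By the median of the libraries the order turned, with 188.1 CPM in classical monocytes and 165.7 CPM in inflammatory macrophages. The pooled log2 ratio of resident over inflammatory macrophages was −0.53, with the resident class lower in 5 of 6 libraries. Among the monocytes, the cluster led by Vcan held 207.5 CPM and the cluster whose leading genes include the stress genes Hspa1a, Hspa1b and Atf3 held 105.6 CPM.

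**Figure D3:**
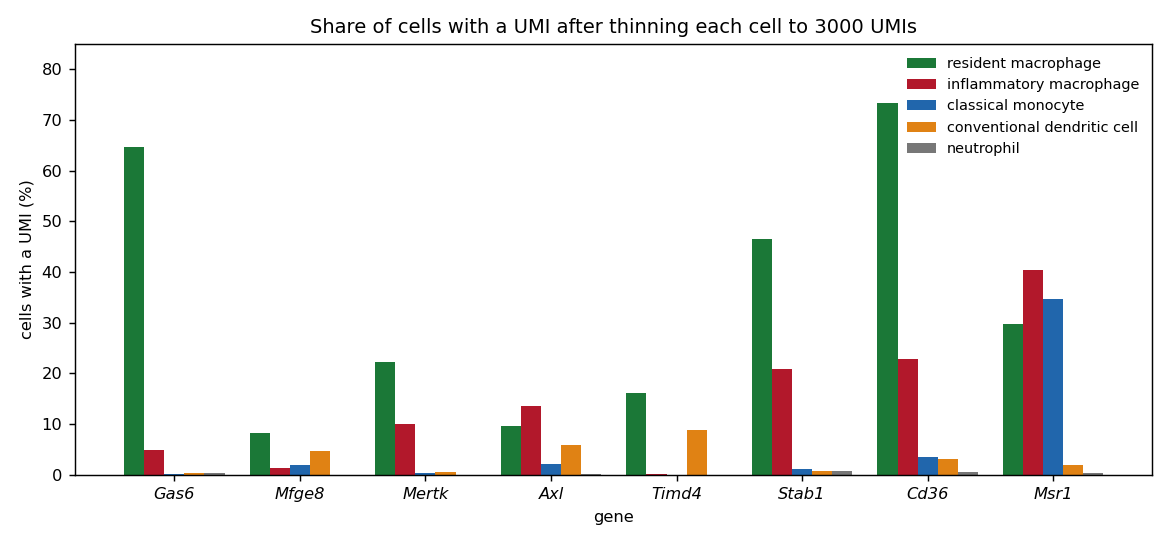
Share of cells (%) with at least 1 UMI of each gene after every cell was thinned to 3000 UMIs and shallower cells were left out, in 5 classes. Gas6 was found in 64.7% and Cd36 in 73.3% of resident macrophages, Msr1 in 40.4% of inflammatory macrophages and 34.6% of classical monocytes, and neutrophils stayed below 1% for each gene shown.

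Both macrophage classes held cells with RNA of neutrophil markers, and the levels in CPM differed between cells with much and with little of it. Cells in which the 10 neutrophil markers summed to 10000 CPM or more made up 41.9% of inflammatory and 25.9% of resident macrophages, with 32.2% to 52.8% and 19.5% to 36.8% over the libraries. Among the other classes they were 79.5% of nonclassical monocytes, 51.8% of neutrophil precursors, 26.9% of 52 basophils, 14.9% of conventional dendritic cells, 3.08% of classical monocytes and 0.411% of B cells. The authors had removed ambient RNA and doublets before deposit, and whether the neutrophil RNA came from uptake, doublets or free RNA was not tested.

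Inflammatory macrophages with this RNA (1876 cells, median 26176 UMIs) had lower CPM of Cd36, Msr1, Mertk and Axl in 6 of 6 libraries than those without it (2606 cells, median 16716 UMIs). The pooled levels were 133.8 against 253.9 CPM for Cd36, 156.4 against 263.1 CPM for Msr1, 34.0 against 50.5 CPM for Mertk and 44.0 against 67.3 CPM for Axl. Counted per cell, the pooled means of these genes were close, with 3.87 against 4.48 UMIs of Cd36 and 4.53 against 4.64 of Msr1. Mertk was at 0.984 against 0.890 UMIs per cell and Axl at 1.27 against 1.19. Stab1 was at 96.4 against 107 CPM, higher with this RNA in 3 of 6 libraries. Per cell, the Stab1 libraries ranged from 1.16 to 4.06 UMIs with this RNA and from 0.624 to 2.79 without. The cells with little of this RNA were not alike. At the finer clustering described below, Cd36 was at 7.68 UMIs per cell in a cluster led by Arg1 and 1.58 in one led by Cxcl9. It was at 4.01 in the cluster with neutrophil RNA. Mertk was at 1.31, 0.503 and 1.06 UMIs per cell in the same order. Gas6 was higher in the cells with this RNA on both scales. It was at 24.0 against 17.3 CPM, higher in 6 of 6 libraries, and at 0.693 against 0.305 UMIs per cell. By the same finer clusters, Gas6 was at 23.05 CPM in the cluster with neutrophil RNA, between 30.2 CPM in the Arg1 cluster and 4.88 CPM in the Cxcl9 cluster. Per cell these held 0.644, 0.533 and 0.0934 UMIs. The part of the makeup of the low group in these contrasts was not tested.

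**Figure D4:**
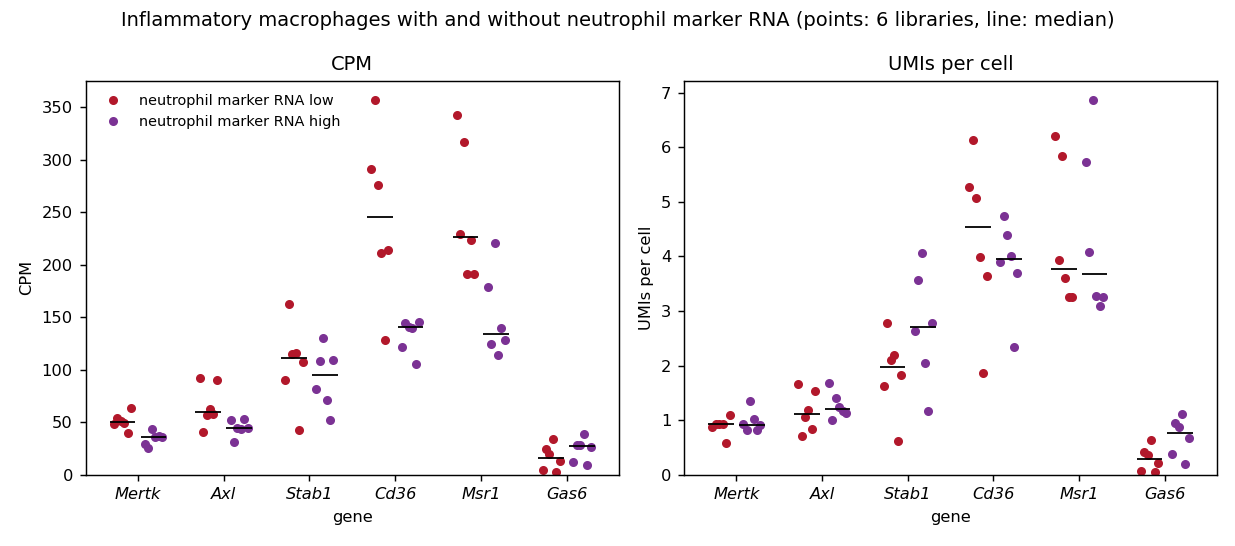
Levels of 6 genes in inflammatory macrophages with neutrophil marker RNA at or above 10000 CPM (high) or below it (low), as CPM and as UMIs per cell. Points are the 6 libraries and lines their medians, and the gap in CPM of Cd36 and Msr1 is smaller in UMIs per cell.

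Without the cells of high neutrophil RNA, the same 6 members stayed at least 2-fold higher in resident macrophages. Timd4 then reached its highest class level in resident macrophages rather than in dendritic cells. With such cells left out of both classes, Msr1 was at 161.2 CPM in resident and 263.1 CPM in inflammatory macrophages, lower in the resident class in 5 of 6 libraries, with overlapping ranges of 150.8 to 249.1 and 190.8 to 342.4 CPM. The 603 resident macrophages with neutrophil RNA held 83.7 CPM of Mertk and 509 CPM of Cd36, against 134.5 and 939 CPM in the 1725 others. Per cell they held 1.72 against 1.69 UMIs of Mertk and 10.5 against 11.8 of Cd36. Resident cells also differed in makeup. The finer resident cluster led by Ccl24 had a median of 38098.8 CPM of neutrophil markers, and that led by Fxyd2 had 0. These clusters held 103.7 and 121.6 CPM of Mertk and 609.5 and 884.4 CPM of Cd36, in that order. The part of this makeup in the contrast was not tested.

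The inflammatory class was not uniform in these receptors. A finer clustering kept 3828 of its 4482 cells in the class. The class then held a cluster led by Cxcl9, with the interferon-induced genes Cxcl10 and Gbp2 (932 cells). Another was led by Arg1, with Spp1 and Gpnmb (1132 cells). Both had little neutrophil RNA and stood beside a cluster with neutrophil RNA (1785 cells). Cd36 was at 435.1 CPM in the Arg1 cluster (libraries 308.1 to 606.2) and 82.4 CPM in the Cxcl9 cluster (58.3 to 130.4). Stab1 was at 177.8 CPM (81.0 to 234.4) and 33.2 CPM (20.3 to 44.9), and Mertk at 74.2 CPM (62.3 to 93.1) and 26.3 CPM (4.88 to 32.8). In all 3 genes the libraries did not overlap, and 10.2% of the 9134 genes at 5 CPM or more in either cluster were likewise higher in the Arg1 cluster without overlap. No member was lower there without overlap, against 2.80% of genes. Gas6 was higher in the Arg1 cluster in 6 of 6 libraries, at 30.2 against 4.88 CPM, with overlapping ranges, and Axl was lower there in 5 of 6 libraries, at 56.1 against 78.4 CPM. Msr1 differed by 1.35-fold, with overlap. Resident macrophages held 116 CPM of Mertk, 268 CPM of Stab1 and 783 CPM of Cd36, nearer the Arg1 than the Cxcl9 cluster. Their libraries overlapped those of the Arg1 cluster in Mertk (72.8 to 164.4 CPM) and Stab1 (186.5 to 347.6 CPM). In Cd36 they did not (668.6 to 1009 CPM). The split into finer inflammatory clusters was examined after the clusters had been seen.

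Among the resident cells with a Fxyd2 UMI, those that also had a Lyve1 UMI held more Timd4 and Gas6. Resident cells without Fxyd2 are not part of this comparison. The 1754 cells with a UMI of both genes held 71.7 CPM of Timd4 and 425.5 CPM of Gas6, and the 237 cells with Fxyd2 but no Lyve1 held 19.2 and 235.1 CPM. In the 5 libraries with enough cells the ranges did not overlap, at 59.4 to 81.7 against 4.17 to 34.9 CPM for Timd4 and 355.0 to 479.8 against 187.4 to 284.9 CPM for Gas6. These 2 were the members higher without overlap, against 2.15% of 9609 genes, and none was lower without overlap, against 0.874%. Axl was higher in the cells without Lyve1 in 5 of 5 libraries, at 52.6 against 35.9 CPM, with overlapping ranges. Msr1 was at 147.4 against 141.5 CPM, higher in 4 of 5 libraries. Mertk and Stab1 were higher with Lyve1 in 5 of 5 libraries, at 119.9 against 95.1 and 279.4 against 222.6 CPM, with overlapping ranges. Cd36 was lower with Lyve1 in 4 of 5 libraries, at 770.5 against 963.4 CPM, also with overlap. The median depth was 13568.5 UMIs in the double-positive cells and 11122 in the others, and a gate on UMIs takes deeper cells.

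Resident macrophages with a Timd4 UMI (920 cells, median 14188.5 UMIs) and without (1408 cells, median 11534 UMIs) had overlapping library ranges for every other measured member. Gas6 was higher with Timd4 in 6 of 6 libraries, at 441.0 against 353.7 CPM, and Mertk in 5 of 6, at 137.2 against 98.9 CPM. Cd36 was higher in 3 of 6 libraries, at 747.0 against 811.7 CPM. A shallow resident cluster of 146 cells (median 2127.5 UMIs) held 24.3 CPM of Mertk and 77.1 CPM of Axl. The main resident cluster held 117 and 38.7 CPM. The shallow values rest on few counts. In a finer cluster of 149 cells with the same leading genes, 12 Mertk UMIs gave 24.2 CPM (12.5 to 42.3). Its 38 Axl UMIs gave 76.7 CPM (54.3 to 105.3), with 8.21 to 151.8 CPM over 3 libraries. Leaving the shallow cluster out kept the count of 6 members.

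The members were set beside 49 other genes of the pathway, of which 40 were measured at 5 CPM or more. Of the 40, 5 were at least 2-fold higher in resident macrophages and 5 at least 2-fold lower, against backgrounds of 11.4% and 4.60% of all genes. Their median log2 ratio was −0.02, beside 0.11 over all genes tested. The other bridging molecules gave the clearest split: Pros1, the second TAM ligand, was at 210.0 against 35.3 CPM, the complement genes C1qa and C1qc were at 2684 against 970 CPM and 2160 against 604 CPM, and Thbs1, a CD36 ligand, was lower, at 488 against 1558 CPM. Pros1 was higher in 6 of 6 libraries and Thbs1 lower in 6 of 6.

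Of the other scavenger receptors, 1 of 6 measured was at least 2-fold higher and none lower. This was Colec12, a collectin scavenger receptor, at 123.9 against 3.05 CPM, a log2 ratio of 5.34 with library values of 97.7 to 174.3 against 2.03 to 4.46 CPM. Scarb1, the lowest of the list, was at 16.7 against 32.2 CPM. Of 7 measured phosphatidylserine receptors and partners, none was 2-fold higher and 2 were 2-fold lower, Havcr2 (TIM-3) at 53.9 against 119.9 CPM and Scarf1 at 4.58 against 9.64 CPM, while the highest ratio was that of the integrin gene Itgav, at 0.24 on the log2 scale.

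None of the 7 measured engulfment genes passed 2-fold in either direction. They ranged on the log2 scale from −0.85 for Elmo2 to 0.51 for Dock1, which act together upstream of Rac1. None of 3 measured genes of the signals against uptake passed either, with Cd24a at −0.72 and Sirpa at 0.03. Of the 10 genes for digestion and cholesterol efflux, Rubcn, which takes part in LC3-associated phagocytosis, was 2-fold higher, and the lipid-sensing nuclear receptors Nr1h3 and Pparg were 2-fold lower, at −1.30 and −1.28. Adam17 and Adam10, proteases of MERTK shedding, were at −0.03 and 0.13.

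**Figure D5:**
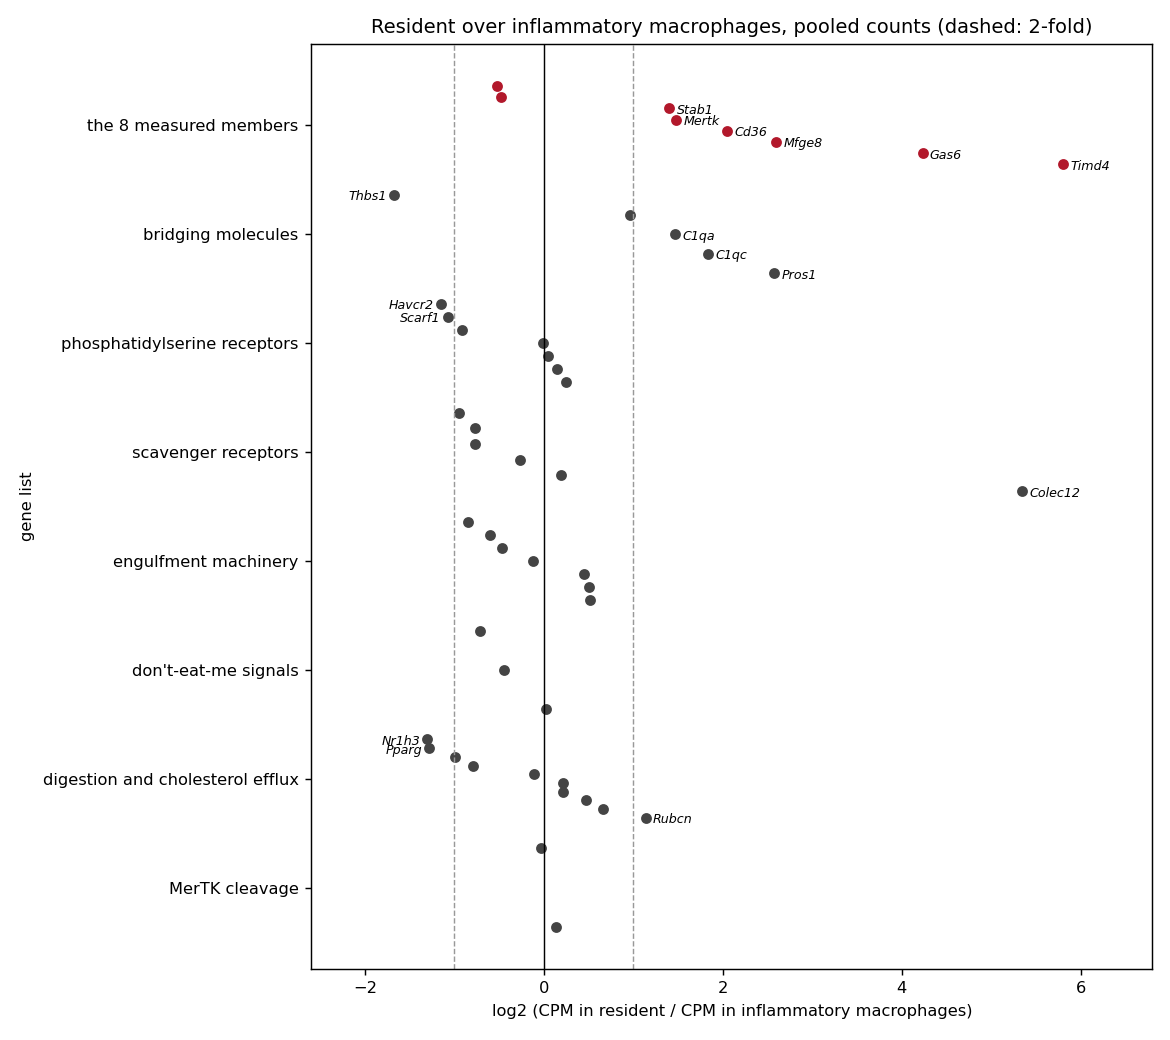
Log2 ratio of pooled CPM in resident over inflammatory macrophages for the 8 measured members (red) and for 40 other pathway genes by list (grey), with 2-fold marked by dashed lines. The 6 members named above lie beyond the right line, and among the other lists Pros1, C1qa, C1qc, Colec12 and Rubcn do.

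Across the 15 classes, the profile of log2(CPM + 1) of each member was compared with 11895 genes that reached 10 CPM in a class. The correlations describe 15 points that share libraries and depth. Mertk and Stab1 were each other's closest gene (r = 0.96), and Mertk was next closest to Sepp1 (0.94) and Dab2 (0.94). Gas6 was closest to Cspg4 (0.99), Akr1b8 and Plxna4. Timd4 was closest to Cd163 (0.88), Cd209b and Dpp10, Cd36 to Sepp1 (0.93), 2900089D17Rik and Nr1h3, and Stab1 after Mertk to Ms4a14 and Scamp5. Msr1 was closest to Ms4a8a (0.94), Fcgr1 and Clec4a3, Axl to Errfi1 (0.94), Tnfrsf12a and Sphk1, and Mfge8 to Sbds (0.94), Pgrmc1 and Enc1.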

How the data were processed

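Per the study's methods, CD45+ cells of digested synovium were sorted, prepared with the Chromium 3′ kit and sequenced, and the authors used Cell Ranger 7 for alignment (mm10), removed ambient RNA with SoupX and doublets with DoubletFinder, and kept cells with 200 to 7000 genes and at most 10% mitochondrial content in Seurat. The authors deposited whole UMI counts of 20394 genes in 32953 cells, not scaled for depth. Treatment is named on the samples but not on the barcodes, so the planned edgeR comparison of PEPITEM with PBS was not run.

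With scanpy 1.11.5, each cell was set to 10000 counts before the logarithm. The 2000 most variable genes, without 58 pathway genes, gave 30 principal components, 15 neighbors and Leiden clusters at resolution 1.0. A cluster took a class name when at least 3 of the markers of the class were in 25% of its cells and at least 1 was in its 30 leading genes, unless another class had more markers in the 10 leading genes. Pooling of the 3 dendritic lists was decided with the clusters in view. No doublet caller was run here. Thinning drew 3000 UMIs per cell without replacement. All 9 members are described. Of each pathway list, the count and the genes with the highest and lowest ratios are given, and for each member the 3 genes most like it by Pearson's r. The members and lists were chosen with earlier results of these data known. Fold calls were tested on simulated counts. The alternatives were other resolutions, marker gates per cell, the pathway genes kept, the median of libraries, leaving out each library, and other folds.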

Additional observations from a re-analysis of the deposited data

How the results depend on the processing

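No paired analysis was possible because the barcodes could not be tied to the samples, so no treatment groups were formed. The count of members at least 2-fold higher in resident macrophages was 6, and 5 with marker gates per cell, where Cd36 dropped out, and 4 at a fold of 3. It was 6 at every omitted library. All these counts pool the inflammatory class, whose finer Arg1 cluster lay nearer the resident class in Mertk, Stab1 and Cd36. The count of members highest in a macrophage class was 5, and 4 by the median of the libraries, 6 at Leiden resolution 2.0, and 5 to 6 with 1 library left out, with Msr1 or Timd4 changing side. Without library 3 Timd4 was highest in resident macrophages. Over 13 alternatives the log2 ratio stayed above 0 for Mertk (1.26 to 1.59), Gas6 (3.97 to 4.72), Timd4 (4.45 to 6.56), Stab1 (1.05 to 1.52), Cd36 (0.57 to 2.13) and Mfge8 (2.10 to 2.79), and below 0 for Axl and Msr1. Leaving out cells with neutrophil RNA or the shallow resident cluster was chosen after seeing the data. Counting depth limits Marco, with 8 UMIs, and Timd4 outside the resident and dendritic classes.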
